A study of Mus musculus with 88 samples.

Results

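Cluster 14 of the deposited single-cell clustering held 190 of the 4949 cells, which the study's authors divided into 22 clusters. A cell belonged to it when its entry in the cell annotation carried the number 14 at clustering resolution 2.5, and no other criterion was used. The genes that set it apart by the largest ratios were *Mesp1*, *Mixl1*, *Cyp26a1*, *T*, *Lhx1*, *Eomes* and *Fst*. The cluster is called by its number here, since none of the marker lists drawn up for naming cell types described it as a whole.

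The study followed mouse embryonic stem cells and their embryoid bodies, which are aggregates of stem cells that form many early embryonic cell types when the self-renewal factor LIF is withdrawn, after loss of subunits of Polycomb Repressive Complex 2 (PRC2). Live cells, sorted by exclusion of the dye 7-AAD, were sequenced with the SORT-seq method at days 0, 4, 7, and 10 from WT cells and from cells null for *Mtf2*, for *Jarid2* or for *Eed*, 1 library for each genotype and day, 16 libraries in all. EED is a core subunit of PRC2, while MTF2 and JARID2 belong to its alternative forms PRC2.1 and PRC2.2. The *Mtf2* null line carried a gene trap on both alleles, and the other mutant lines lacked *Jarid2* or *Eed* on both alleles. Each genotype was 1 cell line. WT single cells were of the E14 line, and the labels give E14 for all 16 libraries, although the study's own bulk experiment matched the mutants to other WT lines, pairing Pcl1-3 wt with *Mtf2*, JM8 with *Jarid2* and J1 with *Eed*. All groups were aggregated in serum with LIF before LIF was removed, and no further agent was added. With 1 library for each genotype and day, no difference between genotypes or days could be tested in single cells, and levels below are summed unique molecular identifiers (UMIs) of a group of cells scaled to a common total of 1000000 (UMI CPM), with exact 95% Poisson intervals that cover counting error only.

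The genes that lead this cluster are known from the primitive streak, the region of the gastrulating embryo through which epiblast cells leave the epithelium and become mesoderm and endoderm. Nodal and Wnt signals induce the T-box factors *Eomes* and *T* there, *Mesp1* marks the earliest mesoderm that leaves the streak, and *Snai1* represses the epithelial cadherin gene *Cdh1* while cells detach. In embryoid bodies such cells form for a short period between the pluripotent state and the differentiated germ layers, and many of the regulators concerned are classical PRC2 targets in stem cells.

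The promoters of 4 leading genes are shown as examples of the genes by which the cluster is described, 2 of them with and 2 without a match to 3 motifs of streak signalling. Each runs from 250 bases before the transcription start to 50 bases after it, 5′ to 3′ on the strand of the gene, from RefSeq (GRCm38.p6), with matches in capitals. *Mesp1* lies at chr7:79793541-79793840 on the minus strand, *Sp5* at chr2:70474673-70474972 on the plus strand, *T* at chr17:8434173-8434472 on the plus strand, and *Eomes* at chr9:118477939-118478238 on the plus strand.
Mesp1: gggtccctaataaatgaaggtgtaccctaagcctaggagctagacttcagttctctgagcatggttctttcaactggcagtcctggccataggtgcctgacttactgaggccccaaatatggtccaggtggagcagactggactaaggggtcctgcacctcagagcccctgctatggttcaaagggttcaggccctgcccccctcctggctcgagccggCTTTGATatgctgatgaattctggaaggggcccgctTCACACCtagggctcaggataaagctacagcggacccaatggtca
Sp5: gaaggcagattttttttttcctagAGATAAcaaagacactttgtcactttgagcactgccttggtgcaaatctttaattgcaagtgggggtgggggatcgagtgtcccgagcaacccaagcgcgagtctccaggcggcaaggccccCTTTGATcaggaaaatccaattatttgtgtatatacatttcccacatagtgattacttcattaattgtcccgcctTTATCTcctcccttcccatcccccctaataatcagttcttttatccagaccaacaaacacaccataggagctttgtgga
T: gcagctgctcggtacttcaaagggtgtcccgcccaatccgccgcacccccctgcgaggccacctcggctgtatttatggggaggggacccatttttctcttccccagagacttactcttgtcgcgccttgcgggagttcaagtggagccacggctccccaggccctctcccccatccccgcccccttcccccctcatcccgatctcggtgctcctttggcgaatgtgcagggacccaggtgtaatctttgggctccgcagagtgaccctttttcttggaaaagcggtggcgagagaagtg
Eomes: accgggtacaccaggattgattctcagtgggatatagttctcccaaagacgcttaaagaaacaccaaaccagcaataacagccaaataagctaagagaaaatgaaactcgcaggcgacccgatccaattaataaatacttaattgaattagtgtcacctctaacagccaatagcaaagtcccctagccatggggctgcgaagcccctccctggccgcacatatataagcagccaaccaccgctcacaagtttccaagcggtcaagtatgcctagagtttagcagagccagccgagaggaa
The motifs were the TCF/LEF core ATCAAAG, the T-box motif TCACACC and the GATA motif AGATAA, each read on both strands. The TCF/LEF core, bound by the factors that relay Wnt signals, occurred in 3.73% of all 32851 promoter windows and in those of *Mesp1* and *Sp5*. The T-box motif occurred in 3.98% of windows and in that of *Mesp1*, and the GATA motif in 11.2% of windows and in those of *Sp5* and *Vrtn*. Of the 20 leading genes named below, 15 had a promoter entry, with 17 windows among them, while *Mixl1*, *Fst*, *Fgf8*, *Aplnr* and *Rspo3* had none. The CpG count of these windows ran from 4 (*Mesp1*) to 34 (*Snai1* and *Vstm2b*) with a median of 12, beside a median of 7 over all windows. A match is a description of letters, and binding was not measured.

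Cluster 14 was mostly a day 7 population, and most of its cells were WT or *Mtf2* null. Of its 190 cells, 158 (83.2%) came from day 7, 27 (14.2%) from day 10, 5 (2.63%) from day 4 and none from day 0. WT gave 97 cells, *Mtf2* null gave 72, *Jarid2* null gave 20, and a single cell was *Eed* null (1). At day 7 the cluster held 91 of 316 WT cells (28.8%, exact 95% binomial interval 23.9 to 34.1), 54 of 344 *Mtf2* null cells (15.7%, 12.0 to 20.0), 12 of 302 *Jarid2* null cells (3.97%, 2.07 to 6.84) and 1 of 319 *Eed* null cells (0.313%, 0.00794 to 1.73). The 4 intervals at day 7 did not overlap, but they describe counting in 1 library each and not the spread between cultures. At day 10 the shares were 6 of 214 WT cells (2.80%, 1.04 to 6.00), 13 of 321 *Mtf2* null cells (4.05%, 2.17 to 6.83), and 8 of 264 *Jarid2* null cells (3.03%, 1.32 to 5.88), with overlapping intervals. No *Eed* null cell of day 10 belonged to it, 0 of 202 cells, which by a limit of 3 cells allows a share of up to 1.49%. At day 4 the 5 cells all came from the *Mtf2* null library, 5 of 331 cells (1.51%, 0.492 to 3.49), and 0 of 331 WT cells allows up to 0.906% by the same limit.

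**Figure D1:**
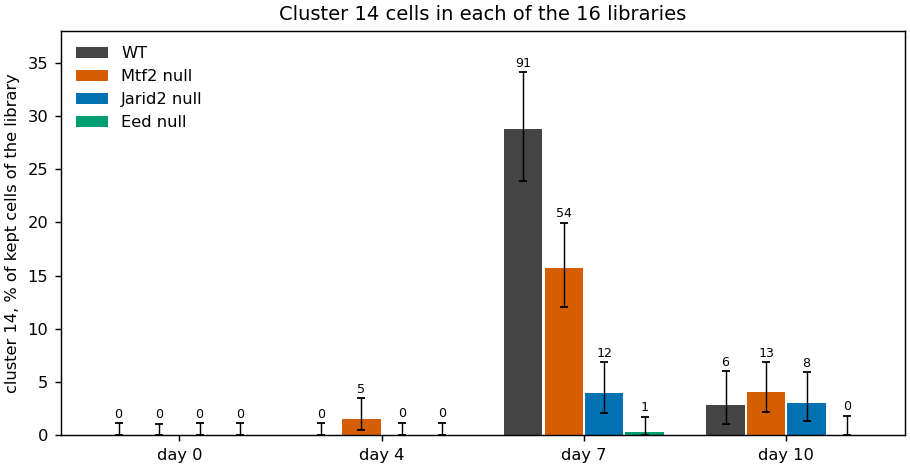
Share of the kept cells of each library that belonged to cluster 14 (vertical axis, %), by day (horizontal axis) and genotype (colour), with exact 95% binomial intervals as error bars. WT at day 7 stands highest at 28.8%, *Mtf2* null follows at 15.7%, and every other library lies at 4.05% or below.

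The cells of cluster 14 were not shallower than the rest. They held a median of 6832.5 UMIs (range 1322 to 22366) on 2947.5 genes, 1473415 UMIs in all, beside a median of 6642 UMIs in all 4759 other cells and 5720 UMIs in the 2097 other cells of days 7 and 10. Against the ERCC spike-in RNA added to each well, cluster 14 cells of WT day 7 held a median of 215 cellular UMIs per spike-in UMI, compared with 171 in the other cells of that library (1.26 times), and those of *Mtf2* null day 7 held 222 compared with 159 (1.40 times). The ratio was 1.03 for *Jarid2* null day 7, between 1.08 and 1.34 for the 3 libraries of day 10, and 0.869 for the 5 cells of day 4. All plates used the same 384 cell barcodes, so the 190 cells carried 159 different barcodes, 30 of them in more than 1 cluster 14 cell, and each of the 190 recurred in a kept cell of another library. Barcodes therefore name wells of separate plates and not shared cells.

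*Mtf2* followed the labels at days 7 and 10 but not in the 5 cells of day 4. *Mtf2* stood at 307 UMI CPM in WT day 7 cells of cluster 14 and at 46.6 in those of *Mtf2* null day 7, and at 491 and 52.98 at day 10. In the 5 cluster 14 cells of the *Mtf2* null day 4 library it stood at 217 UMI CPM (6 UMIs), and all 5 cells had a UMI of it, compared with 57.7 UMI CPM and 97 of the 326 other cells (29.8%) of that library. The imprinted RNA *Meg3* stood at 507 UMI CPM in these 5 cells and at 49.9 in the other 326, while *Hprt*, which was nearly absent from WT cells, stood at 145 (4 UMIs in 3 cells) and 518. The levels of *Mtf2* and *Hprt* in these 5 cells lie between those of WT cells and of the other *Mtf2* null cells, and whether cells of another line were among the 5 was not tested. Of the results below that sum all 190 cells, the count of genes at least 4 times higher in cluster 14 is also given without them. The other sums, such as those of gene lists and of cluster comparisons, include them. *Jarid2* stood at 156 UMI CPM (15 UMIs) in *Jarid2* null day 7 and at 198 in WT day 7 cells of cluster 14. At day 10 it stood at 36.5 (2 UMIs) and 173. Over all cells of a library it was lower in *Jarid2* null than in WT at each day, with 146 and 594 at day 0 and 185 and 290 at day 7. The *Mtf2* null library of day 7 also held 184. The single *Eed* null cell had no UMI of *Eed*.

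Among 4839 genes with at least 50 UMI CPM in cluster 14 or in all other cells, 40 (0.827%) were at least 4 times higher in cluster 14 and 88 (1.82%) at least 4 times lower, with 10 UMI CPM added to both levels before each ratio. The count of 40 was the same without the 5 cells of day 4. The clustering had used these genes, so ratios against other clusters describe the cluster and carry no test. The 20 genes with the largest ratios, taken from 922 genes that had at least 100 UMI CPM and were higher in cluster 14 within both WT day 7 and *Mtf2* null day 7, were transcription factors, secreted signals with their receptors and antagonists, and a few membrane proteins. Of these 20, 16 had their highest level of all 22 clusters in cluster 14, which their choice by ratio favoured. In the 7 libraries with at least 5 cells of the cluster, 17 of the 20 were higher inside than outside it in every library, and for 12 of the 20 the lowest level inside lay above the highest level outside. The exceptions were *Evx1*, without a UMI on either side in *Mtf2* null day 4, *Rftn1*, without a UMI inside in that library, and *Apln*, without a UMI inside in *Mtf2* null day 10 and *Jarid2* null day 10. The counts of 16, 17 and 12 describe genes chosen as higher in cluster 14, in WT day 7 and *Mtf2* null day 7 by rule. No share over all genes is given beside them.

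The transcription factors came first. *Mesp1* (ENSMUSG00000030544, GRCm38 chr7:79792241-79793788, minus strand), a bHLH factor of the earliest mesoderm and of cardiac progenitors, had 540 UMIs in cluster 14 and a level of 366 UMI CPM (336 to 399), compared with 2.97 in all other cells and 7.37 in the other cells of days 7 and 10. Its levels by library were 72.4 UMI CPM in *Mtf2* null day 4, 384 in WT day 7, 452 in *Mtf2* null day 7, 197 in *Jarid2* null day 7, 159 in WT day 10, 336 in *Mtf2* null day 10 and 274 in *Jarid2* null day 10, and no library held more than 24.3 outside the cluster. Inside and outside levels of *Mesp1* thus did not overlap between libraries. *Mixl1*, a homeobox factor of the streak needed for endoderm and for the movement of mesoderm, stood at 249.8 UMI CPM compared with 6.58 in the other cells of the same days, and was less even, from 18.2 in *Jarid2* null day 10 to 549 in WT day 10.

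*T* (brachyury), the T-box factor of posterior mesoderm and notochord, stood at 535 UMI CPM (498 to 573) compared with 54.01 in the other cells of the same days. Its level was 1303 UMI CPM in *Mtf2* null day 4, 619 in WT day 7, 405 in *Mtf2* null day 7, 839.9 in *Jarid2* null day 7, 101 in WT day 10, 327 in *Mtf2* null day 10 and 529 in *Jarid2* null day 10, lowest in the 6 WT cells of day 10. *T* was not highest in cluster 14, since cluster 20 reached 616.4 UMI CPM, and the same held for *Fgf8* (346 in cluster 20), *Rspo3* (522 in cluster 20) and *Aplnr* (139 in cluster 19). *Eomes*, the T-box factor that starts mesoderm and endoderm formation downstream of Nodal, lay between 274 and 977 UMI CPM in the 7 libraries and between 12.0 and 107 outside the cluster, with 535 UMI CPM in the cluster as a whole compared with 46.7 in the other cells of the same days. *Lhx1*, a LIM homeobox factor of the streak and later of the head organiser and kidney, stood at 245 compared with 13.9, and at 124 to 529.8 UMI CPM by library. The homeobox factor *Evx1* (115 compared with 10.7), the Wnt target *Sp5* (138 compared with 20.0) and the epithelial repressor *Snai1* (119 compared with 16.1) completed the regulators with known roles in the streak. *Vrtn*, a DNA-binding protein linked to vertebral number, stood at 119 compared with 21.5.

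The signalling genes of the cluster covered Wnt, FGF, apelin, activin and retinoic acid. *Wnt3*, the ligand that starts streak formation, stood at 113 UMI CPM compared with 15.7 in the other cells of the same days, and *Rspo3*, which strengthens Wnt signals at the receptor, at 261 compared with 78.5. *Fgf8*, the FGF that streak cells need in order to move away, stood at 183 compared with 36.5, and *Fgf10* at 111 compared with 26.5. The apelin receptor gene *Aplnr*, expressed in migrating mesoderm, stood at 109.9 compared with 15.7, and its ligand gene *Apln* at 101 compared with 15.2. *Cyp26a1*, which breaks down retinoic acid, stood at 603 (564 to 644) compared with 50.8 and was found between 289 and 867 UMI CPM in all 7 libraries. *Fst*, the secreted antagonist of activin, stood at 747 (704 to 793) compared with 111, but ranged from 14.5 UMI CPM in WT day 10 through 177 in *Mtf2* null day 10, 365 in *Jarid2* null day 10, 447 in *Mtf2* null day 7, 1039 in WT day 7 and 1193 in *Jarid2* null day 7 to 1737 in *Mtf2* null day 4. Its inside and outside levels overlapped between libraries, since the other cells of WT day 7 reached 219.9. The remaining leading genes were *Pcdh7*, a protocadherin (172 compared with 50.2), *Vstm2b* (103 compared with 15.3) and the lipid raft protein gene *Rftn1* (109.9 compared with 12.7).

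**Figure D2:**
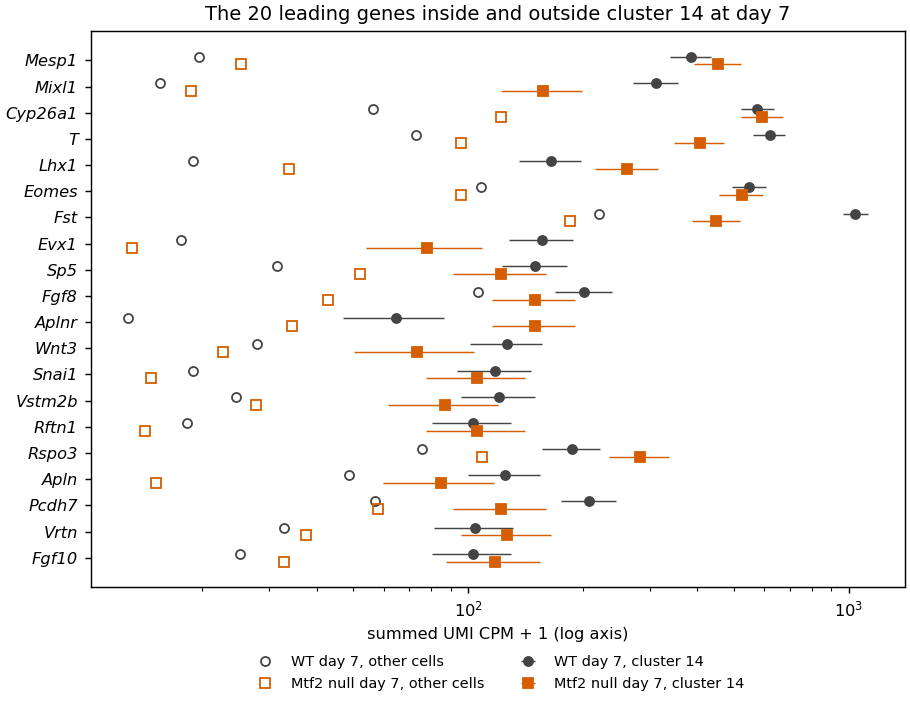
Summed UMI CPM plus 1 (horizontal log axis) of the 20 leading genes (vertical axis) in cluster 14 (filled, with 95% Poisson intervals) and in the other cells of the same library (open), for WT day 7 and *Mtf2* null day 7. Each filled point lies to the right of the open point of its library, which the choice of the 20 genes required, for *Mesp1* at 384 and 452 compared with 18.7 and 24.3.

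The 10 genes with the smallest ratios of cluster 14 over all other cells were pluripotency and metal-binding genes and a blood gene. The stem cell genes *Dppa5a* (27.8 UMI CPM compared with 827 in all other cells), *Tdh* (5.43 compared with 267), *Zfp42* (8.82 compared with 293), *Nr0b1* (4.07 compared with 210.1), *Dnmt3l* (11.5 compared with 326), *Ooep* (6.79 compared with 242) and the secreted protein gene *Spp1* (23.8 compared with 571) made up most of them. The other cells of days 7 and 10 alone held less of these, with 318 UMI CPM of *Dppa5a* and 95.4 of *Zfp42*, still above cluster 14. The metallothionein genes *Mt1* and *Mt2* stood at 52.3 and 127 compared with 480.0 and 953 in the other cells of the same days, and *Mt1* was lower in cluster 14 than in any other cluster. The embryonic globin gene *Hbb-bh1* stood at 21.7 compared with 1267, and cluster 18 reached 19943. Cluster 14 ranked 8 among the clusters for *Hbb-bh1*, above their median of 6.24, so it was not low against most clusters.

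Compared with the other cells of days 7 and 10 only, 64 of 4849 genes (1.32%) were at least 2 times higher in cluster 14 and 163 (3.36%) at least 2 times lower, and these shares are the background for the counts of gene groups that follow. A member was counted when it reached 50 UMI CPM in either group. Of 11 markers of neuromesodermal and tailbud cells 10 were in the table, 5 reached that level and all 5 (*T*, *Cyp26a1*, *Fgf8*, *Evx1*, *Sp5*) were at least 2 times higher, but they are leading genes of the cluster, and the caudal genes of the list were near 0, with *Cdx2* at 1.36, *Cdx1* at 6.11, *Wnt3a* at 4.75 and *Nkx1-2* at 4.75 UMI CPM. Of 26 genes of primitive streak and nascent mesoderm, a list drawn up after the values were seen, 25 were in the table, 16 reached the level, 14 were at least 2 times higher and none was lower. Outside those already named they included *Tdgf1*, the Nodal co-receptor (936 compared with 248), and *Kdr*, the VEGF receptor of early mesoderm (204 compared with 89.6). Members under the level were also described, with *Mesp2* at 40.04 compared with 0.930, *Tbx6* at 23.1 compared with 1.502, *Hoxb1* at 32.6 compared with 6.37, and the organiser gene *Gsc* at 14.3 compared with 2.00, while *Cer1*, which encodes a secreted inhibitor of Nodal and Wnt, stood at 6.79 compared with 6.08.

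Few markers of the differentiated derivatives both reached the level and were higher, but their summed levels were mixed. Summed levels were higher for the presomitic and somitic list (246 compared with 109). The lateral plate and cardiac list (997 compared with 814) and the endothelial list (237 compared with 198) were also higher. The blood list was lower (1551.5 compared with 5313), though cluster 14 ranked 3 among the clusters. Mesenchyme (352 compared with 946), endoderm (303 compared with 488), pan-neural (269 compared with 677) and placode lists (76.7 compared with 118) were lower. Of 15 genes of presomitic and somitic mesoderm 13 were in the table, only *Dll3* (91.6 compared with 8.58) reached the level and was higher, and 4 had no UMI. Of 10 endothelial markers only *Kdr* reached the level, and *Pecam1*, *Cdh5*, *Tie1* and *Emcn* had no UMI in the cluster, which allows up to 2.04 UMI CPM each. Of 10 blood genes, 4 globin genes were at least 2 times lower and *Car2* was higher (1364 compared with 481). Of 13 genes of limb and trunk mesenchyme, 8 reached the level and 5 were lower, among them *Col1a1* (10.9 compared with 147) and *Postn* (3.39 compared with 74.5). Lateral plate and cardiac genes were mixed, with *Gata4* higher (116 compared with 33.98), *Hand1* close (171 compared with 185), *Hand2* lower (27.8 compared with 91.5), and the cardiac genes *Nkx2-5* (3.39) and *Tnnt2* (4.07) near 0. Of 10 markers of definitive and gut endoderm 4 reached the level, of which *Cxcr4* was higher (95.02 compared with 20.5) and 3 were lower, *Epcam* (86.2 compared with 185), *Cldn6* (48.9 compared with 117) and *Trh* (27.1 compared with 109.7), while of those under it *Sox17* stood at 7.47 compared with 21.6 and *Foxa2* at 26.5 compared with 11.0. Of 12 pan-neural genes 1 was lower, *Sox2* (69.2 compared with 405), and of 13 placode genes 12 were in the table and none reached the level.

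The pluripotency genes were split. *Tdgf1* was higher, *Nanog* (117 compared with 142) and *Pou5f1* (37.3 compared with 42.1) were close to the other cells, and *Zfp42*, *Klf2* (39.4 compared with 256), *Sox2* and *Dppa5a* were at least 2 times lower. The primed epiblast genes *Fgf5* (54.97 compared with 29.04), *Otx2* (178 compared with 197) and *Dnmt3b* (526 compared with 466) lay within 2 times, whereas *Utf1* (54.3 compared with 343) and *Pou3f1* (51.6 compared with 123) were lower. Of the genes of epithelial to mesenchymal transition, *Snai1*, *Cdh2* (159 compared with 69.6) and *Fn1* (1723 compared with 638) were higher, while *Cdh1* (119 compared with 273), *Epcam* (86.2 compared with 185) and *Snai2* (10.2 compared with 72.1) were lower. None of the 17 genes of S phase, 23 of G2/M phase and 8 of PRC2 that reached the level differed by 2 times or more.

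Of 33 genes of the Wnt pathway 13 reached the level, of which 3 were at least 2 times higher (*Wnt3*, *Sp5*, *Rspo3*) and 1 lower, the Wnt antagonist gene *Sfrp1* (77.4 compared with 216). Of 27 BMP genes 15 reached it, of which 4 were higher, namely the ligand gene *Bmp2* (90.9 compared with 33.3), the effector gene *Smad1* (255 compared with 91.9), the target gene *Msx1* (211 compared with 97.4) and *Bmper* (56.3 compared with 14.1), and *Id2* was lower (105 compared with 393). Of 18 Notch genes 5 reached it and 2 were higher, *Dll3* and the target *Hes1* (504 compared with 233). Of 22 Nodal genes, a list also drawn up after the values were seen, 8 reached it and 3 were higher, *Tdgf1*, its relative *Cfc1* (91.6 compared with 28.4) and *Fst*, while *Nodal* itself stood at 19.0 compared with 13.3 and its inhibitor gene *Lefty2* at 166 compared with 139.6. Of 19 FGF genes 10 reached it and 1 was higher, *Fgf8*, and of 14 Hedgehog genes 3 reached it and none differed. Of 14 genes of the retinoic acid list 4 reached it, of which *Cyp26a1* was higher and the binding protein gene *Crabp2* lower (39.4 compared with 191).

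Many cells held several of the leading genes. With each cell thinned to 2500 UMIs, which 179 cells of the cluster reached, *Cyp26a1* was found in 56.4% of cells (48.8 to 63.8), *Eomes* in 47.5%, *T* in 46.9%, *Mesp1* in 46.4%, *Fst* in 43.02%, *Lhx1* in 35.2% and *Mixl1* in 34.6%, compared with 7.83%, 8.27%, 6.53%, 1.36%, 12.8%, 2.501% and 1.25% of 1839 other cells of days 7 and 10. In cluster 3, of which 329 of 335 cells were from day 0, which was deeper (median 8485 UMIs) and should lack these genes, none of the 7 was found in more than 1.89% of 318 thinned cells. Unthinned, *Eomes* was found in 75.3% of cluster 14 cells and 3.28% of cluster 3 cells, and *Mesp1* in 66.3% and 0.299%. Of the 190 cells, 83 (43.7%) held a UMI of at least 5 of these 7 genes, 18 cells held all 7 and 2 cells held none. Of the 2097 other cells of days 7 and 10, 18 (0.858%) held at least 5, of which 9 belonged to cluster 20 and 4 to cluster 21. The 7 genes are those by which the cluster was described, so this is a description of how they combine and not a test.

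**Figure D3:**
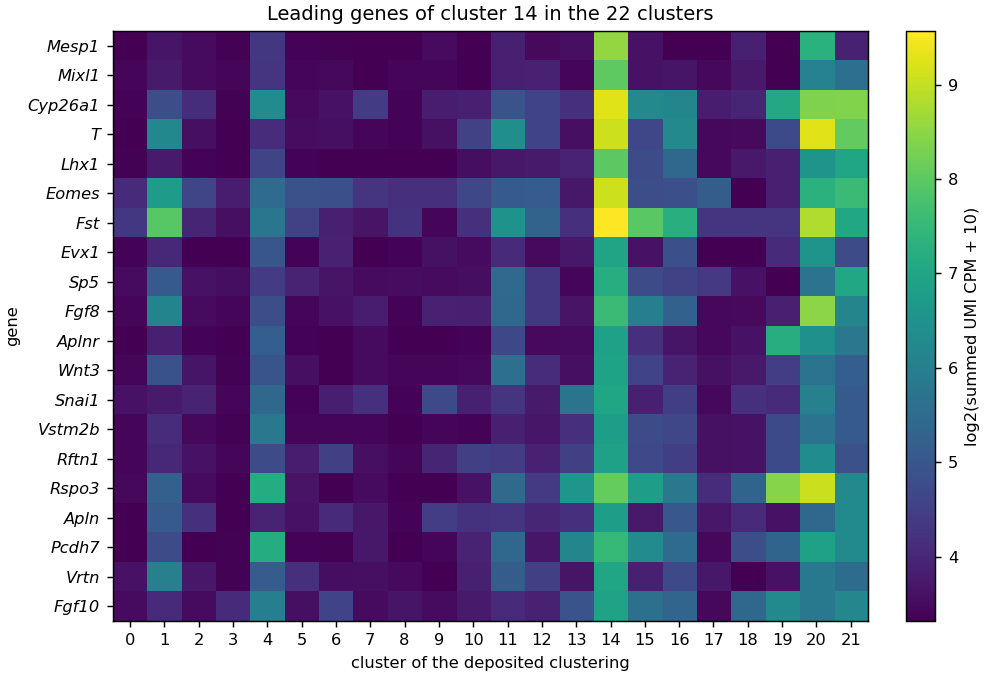
Levels of the 20 leading genes (vertical axis) in each of the 22 clusters (horizontal axis) as log2 of summed UMI CPM plus 10 (colour). The column of cluster 14 is bright for all 20 genes, which were chosen for that. Clusters 20 and 21 share part of the pattern, with *T* at 616.4 UMI CPM in cluster 20 and *Cyp26a1* at 323 in cluster 21.

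The clusters of the same days most like cluster 14 over 7425 genes were clusters 20 (Pearson correlation across genes 0.933), 1 (0.931) and 4 (0.912), a description across genes that share libraries. Cluster 20 had 49 cells, of which 23 were *Eed* null. Against it 70 of 4967 genes (1.41%) were at least 2 times higher in cluster 14 and 173 (3.48%) lower. *Kdr* (204 compared with 33.5), *Otx2* (178 compared with 36.3), *Mixl1* (249.8 compared with 58.6), *Eomes* (535 compared with 148), *Tdgf1* (936 compared with 301) and *Gata4* (116 compared with 36.3) were higher in cluster 14, and *T* (535 compared with 616.4), *Fgf8* (183 compared with 346) and *Rspo3* (261 compared with 522) were not. The squamous envelope gene *Sprr2b* (2.04 compared with 315), *Tgfb2* (29.2 compared with 212), *Dlk1* (61.1 compared with 337) and *Crabp2* (39.4 compared with 229) were lower. The 3 *Sprr2a* genes were also lower, each at 13.6, but are near-identical copies that may share reads.

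Cluster 1 had 341 cells, 217 of them of day 7, and carried epiblast genes. Against it 148 of 4671 genes (3.17%) were at least 2 times higher in cluster 14 and 124 (2.65%) lower. *Mesp1* (366 compared with 2.70), *Bmp4* (369 compared with 23.0), *Kdr* (204 compared with 8.78), *Snai1* (119 compared with 3.71), *Fn1* (1723 compared with 191), *Msx1* (211 compared with 16.2) and *Cdh11* (227 compared with 18.2) were higher, and *Utf1* (54.3 compared with 816), *Pou3f1* (51.6 compared with 487) and *Sox2* (69.2 compared with 482) lower. Cluster 4, 324 cells of days 7 and 10 with mesenchymal genes, differed on the other side. Against it 86 of 4911 genes (1.75%) were at least 2 times higher in cluster 14, led by *T* (535 compared with 7.33), *Mesp1* (366 compared with 10.1) and *Tdgf1* (936 compared with 55.01), and 286 (5.82%) were lower, led by *Acta2* (10.2 compared with 759), *Col1a1* (10.9 compared with 561), *Dlk1* (61.1 compared with 1777) and *Postn* (3.39 compared with 252).

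Cluster 14 was not uniform. The authors' finer clustering at resolution 5 divided it into finer cluster 16, with 143 cells (75.3%), and finer cluster 31, with 43 cells (22.6%), and 4 further cells fell singly into 4 others. Over the whole series finer cluster 16 held 144 cells and finer cluster 31 held 59, so finer cluster 31 crossed the border of cluster 14. Depths and levels below are of their cluster 14 cells only. The finer clusters differed in depth, with median UMIs of 6005 and 9722, and scaled levels allow for that only in part. Of the 91 WT day 7 cells 65 lay in finer cluster 16 and 25 in 31, and of the 54 *Mtf2* null day 7 cells 43 and 9. All 6 WT cells of day 10 lay in finer cluster 16. The division was made from these same genes, so the following levels carry no test. Between the 2 groups, 80 of 4810 genes (1.66%) were at least 2 times higher in finer cluster 31 and 134 (2.79%) at least 2 times higher in finer cluster 16.

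Finer cluster 31 carried *Fst* (1959 UMI CPM compared with 239.5 in finer cluster 16), *T* (1142 compared with 283), *Nanog* (266 compared with 55.4), the growth factor binding protein gene *Igfbp3* (334 compared with 26.7), *Apln* (277 compared with 27.7), *Cdh1* (245 compared with 64.4), and *Foxa2* (68.7 compared with 7.92). Finer cluster 16 carried *Kdr* (287 compared with 16.0), *Bmp4* (513 compared with 36.6), *Hand1* (238 compared with 18.3), *Gata4* (164 compared with 9.16), *Cxcr4* (132 compared with 2.29), *Hey1* (146 compared with 13.7) and *Tbx3* (198 compared with 22.9), of which *Bmp4*, *Hand1* and *Gata4* act in lateral and cardiac mesoderm. *Fn1* (2235 compared with 602), *Cdh2* (192 compared with 75.5) and *Mesp1* (434 compared with 199) were also higher there. Of 7 lateral plate and cardiac genes at 50 UMI CPM 6 were at least 2 times higher in finer cluster 16, and of 16 BMP genes 7 were higher there and none in finer cluster 31. Of 9 FGF genes 4 (*Fgf5*, *Fgf8*, *Spry2*, *Dusp6*) were higher in finer cluster 31 and none in finer cluster 16. Epithelial genes went with finer cluster 31 (*Cdh1*, *Epcam*, *Cldn6*).

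In WT day 7 and *Mtf2* null day 7, the latter with only 9 cells in finer cluster 31, *T* and *Kdr* divided the same way but not every gene did. *T* stood at 998 UMI CPM in finer cluster 31 and 388 in finer cluster 16 of WT day 7, and at 1287 and 174 in *Mtf2* null day 7. *Kdr* stood at 15.1 and 365 in WT day 7, and at 22.2 and 255 in *Mtf2* null day 7. *Spry2*, higher in finer cluster 31 over all libraries, stood at 359 and 212 in WT day 7 but at 66.6 and 78.1 in *Mtf2* null day 7. Over 179 cells thinned to 2500 UMIs, Spearman's rho was 0.57 between *T* and *Fst*, -0.28 between *T* and *Kdr* and -0.36 between *Fst* and *Kdr*, while *Mesp1* had -0.04 with *Eomes* and -0.13 with *Mixl1*, values given as a description of cells that share libraries and sparse counts.

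**Figure D4:**
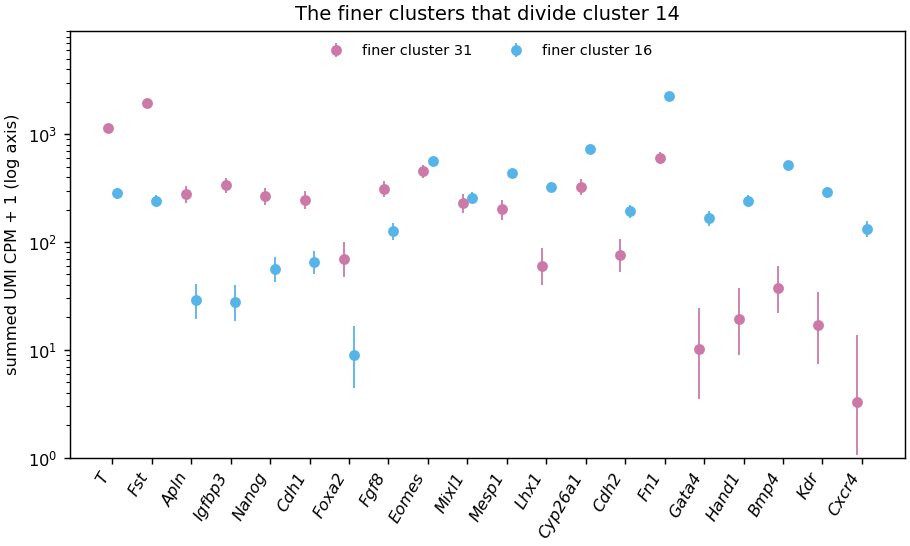
Summed UMI CPM plus 1 (vertical log axis) of selected genes (horizontal axis) in the cells of cluster 14 that fell in finer cluster 16 (143 cells) and finer cluster 31 (43 cells), with 95% Poisson intervals. *Fst* and *T* are higher in finer cluster 31 and *Kdr*, *Bmp4* and *Hand1* in finer cluster 16, for *Kdr* 287 compared with 16.0.

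Within cluster 14, *Mtf2* null cells (67 of days 7 and 10) and WT cells (97) could be compared as levels, without a test. Of 2651 genes with at least 100 UMI CPM in either, 34 (1.28%) were at least 2 times higher in *Mtf2* null and 38 (1.43%) at least 2 times lower. Of the 34, 19 were also at least 2 times higher in *Mtf2* null among the other cells of day 7, and of the 38, 11 were also lower there, so part of the difference was not confined to the cluster. The largest ratios were those of the imprinted RNA *Meg3* and of *Hprt*, a purine salvage enzyme gene. *Hprt* stood at 1.34 UMI CPM (1 UMI) in WT and 442 in *Mtf2* null cells of the cluster, and at 1.38 and 344 in the other cells of day 7. The imprinted RNAs *Meg3* (479.5 in WT compared with 1.84, 1 UMI, in *Mtf2* null) and *Rian* (119 compared with 1.84), and *Mtf2* itself (324 compared with 47.9), were lower, as was *Wdfy1* (122 compared with 18.4). *Emb*, a cell surface glycoprotein gene, stood at 244 in WT and 1866 in *Mtf2* null cells of the cluster, beside 371 and 1053 in the other cells of day 7. *Magohb* stood at 10.7 and 101. The ribosomal protein genes *Rplp1* (329.5 and 3580.0), *Rpl34* (49.6 and 282) and *Rps3a3* (915 and 223) share reads with near-identical copies and are uncertain. Since the WT cells were E14 and *Mtf2* null cells had another matched WT line in the bulk experiment, genotype and line cannot be told apart.

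Of the 20 leading genes, none was at least 2 times higher in *Mtf2* null, and 2 were at least 2 times lower, *Fst* (944 in WT compared with 391) and *Mixl1* (332 compared with 142). *Fst* turned between the days, with 1039 in WT and 447 in *Mtf2* null at day 7 and 14.5 (0.366 to 80.5, 6 cells) and 177 (108 to 273, 13 cells) at day 10. *Mixl1* was lower in *Mtf2* null at both days, 310.0 compared with 156 at day 7 and 549 compared with 88.3 at day 10. The other cells of day 7 held 219.9 and 184 UMI CPM of *Fst* and 14.5 and 17.7 of *Mixl1*. At day 7 *Fst* was also higher in WT within finer cluster 31 (2113 compared with 1431) and within finer cluster 16 (360.2 compared with 186), and the share of the cells in finer cluster 31, where *Fst* was high, was 25 of 91 in WT and 9 of 54 in *Mtf2* null at day 7. *Mesp1* (363 compared with 428), *Eomes* (551 compared with 514), *Cyp26a1* (601 compared with 638), *Snai1* (125 compared with 118) and *Vrtn* (104 compared with 127) were close. Highest relative to WT were *Aplnr* (73.7 compared with 155), *Lhx1* (189 compared with 317) and *Rspo3* (194 compared with 306). With 10 UMI CPM added, the ratio of *Aplnr* was 1.97, and 2.17 at day 7 alone. After *Fst* and *Mixl1*, the lowest were *Pcdh7* (209 compared with 118), *Evx1* (149 compared with 84.8) and *Apln* (115 compared with 66.4). Outside the leading genes, *Dpysl2*, a cytoskeletal protein gene of semaphorin signalling, was lower in *Mtf2* null (159 compared with 46.1, beside 101 and 72.3 in the other cells of day 7), and *Arl4d*, a small GTPase gene, was higher (36.2 compared with 129, beside 18.0 and 19.2). This pair was picked after seeing the values, for a difference under 2 times outside the cluster.

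Bulk embryoid bodies, which did not enter the clustering, allowed a test. They were sequenced at days 0, 2, 4, and 7 from the WT lines J1, JM8, and Pcl1-3 wt, 12 samples with 1 for each line and day. The column names mark day 0 as mono and later days as eb, although the labels give embryoid bodies throughout, so between day 0 and later days culture form and time cannot be told apart. The values are the authors' counts divided by size factors, and the limma test had line and day as factors. Bulk levels mix all cells, so fewer cells of a kind and less RNA per cell cannot be told apart. *T* stood at 2.79, 5.03, 829.8 and 6.00 normalized counts at days 0, 2, 4, and 7 in J1, at 0.400, 0.429, 347 and 23.9 in JM8, and at 0.672, 1.30, 5.06 and 10.8 in Pcl1-3 wt. *Eomes* stood at 28.9, 31.2, 769.8 and 8.68 in J1, at 56.3, 29.4, 121 and 77.4 in JM8 and at 46.6, 34.4, 61.4 and 97.8 in Pcl1-3 wt. *Mesp1* reached 331 at day 4 of J1, 4.61 at day 4 of JM8 and no more than 2.06 in Pcl1-3 wt. The lines differed in time as well as in level, since of the 20 leading genes 19 were highest at day 4 in J1, 11 in JM8 and 3 in Pcl1-3 wt, where 15 were highest at day 7. *Fst*, for example, was highest at day 4 in all 3 lines (344, 175 and 42.9), and *Cyp26a1* only in J1 (487, compared with 42.9 and then 77.7 at day 7 in JM8).

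From day 4 to day 7, none of the 20 leading genes, all of which were tested, fell at an adjusted p under 0.05 in limma, where 3 of 13215 genes (0.0227%) fell and 8 (0.0605%) rose. The log2 difference (day 7 minus day 4, on values plus 1) was negative for 16 of the 20, with a median of -1.17 beside 0.01 over all genes tested. This count leaned on J1, since without that line 17 leading genes were tested and 8 were negative. With all 3 lines, 5 of the 20 stood at an unadjusted p under 0.05, *Vrtn*, *Fst*, *Mixl1* and *T* lower at day 7 and *Pcdh7* higher. *Mixl1* had a difference of -3.80 (SE 1.43, limma adjusted p = 0.219), *T* of -3.24 (SE 1.32, adjusted p = 0.245) and *Fst* of -1.78 (SE 0.61, adjusted p = 0.196). On whole reads recovered from the same values, edgeR's quasi-likelihood test called none of 19 and DESeq2 called 4 that fell. Without Pcl1-3 wt limma called 4, and with the mutant lines added under their labels 5.

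The rise before that was examined after the bulk levels had been seen. From day 0 to day 4, 13 of the 20 leading genes rose in limma at an adjusted p under 0.05, beside 1058 of 13215 genes (8.01%), and none fell. The 20 genes were chosen by their ratio over all other single cells, which included every day 0 cell. That choice favoured genes low at day 0, so the 2 shares are not like for like. *Fst* had a log2 difference of 5.00 (SE 0.61, adjusted p = 0.00189), *Vrtn* of 4.79 (SE 0.68, adjusted p = 0.0037), *Wnt3* of 4.46 (SE 0.74, adjusted p = 0.0062), and *T* of 5.86 (SE 1.32, adjusted p = 0.0179). *Mesp1*, *Mixl1* and *Eomes* did not pass (3.49, 4.67 and 2.06, adjusted p of 0.143, 0.0524 and 0.185). The count depended on the lines included, with 6 genes called without J1, none without JM8 and 16 without Pcl1-3 wt. Cluster 14 was largest at day 7 in E14 single cells, and lines and times differed between the experiments.

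**Figure D5:**
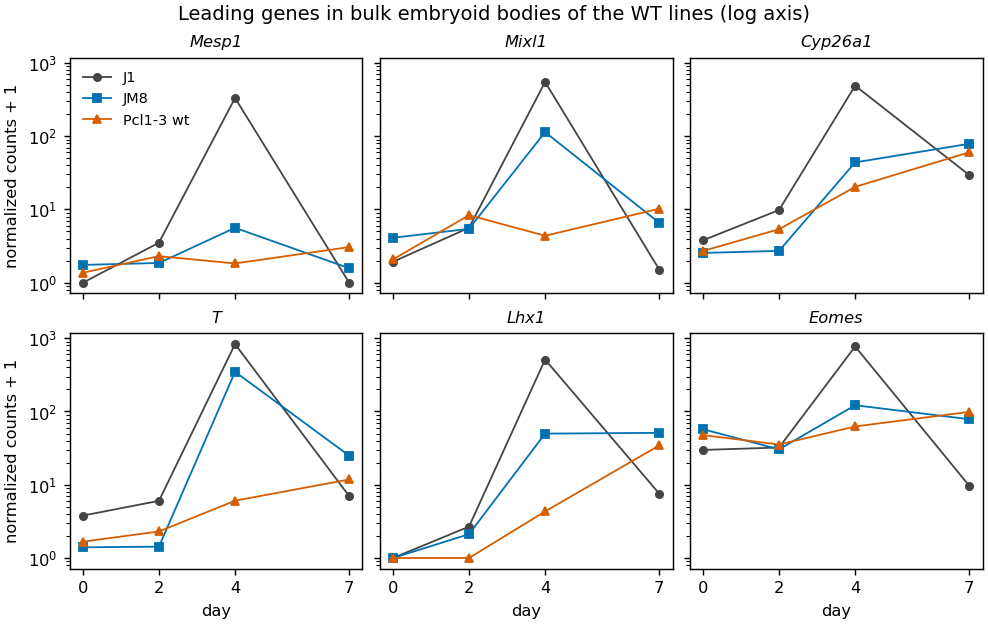
Normalized counts plus 1 (vertical log axis) of leading genes of cluster 14 in bulk embryoid bodies by day (horizontal axis), 1 line for each of the WT lines J1, JM8, and Pcl1-3 wt, 1 sample a point. J1 and JM8 peak at day 4 for *T*, at 829.8 and 347, and Pcl1-3 wt stays at or below 10.8.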

How the data were processed

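Cells of 16 SORT-seq libraries were kept as the authors had filtered and clustered them. Per the labels and the study's methods, the deposited UMI counts came from reads aligned to GRCm38 (mm10) with Bowtie2 and counted with HTSeq, spike-in counts were kept in the files of single libraries, and wells with fewer than 500 genes were removed. The deposited cluster numbers came from Seurat v3 after the library effect had been regressed out. Wells had been sorted singly and no doublet caller was run. The bulk signal values are estimated counts from Salmon that the authors divided by DESeq2 size factors.

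UMI counts were summed over cells, and ratios were formed after adding 10 UMI CPM. Named were the 20 genes with the largest and 10 with the smallest ratio over all other cells among those with at least 100 UMI CPM in the higher group and the same direction in both libraries with at least 15 cluster 14 cells, 5 genes in each direction between *Mtf2* null and WT, the targeted genes, and members of marker and pathway lists. The members, lists and rules were chosen with earlier results of these data known. Clusters compared were the 3 most correlated among those of the same days.

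The bulk columns that share a line and day (up to 2) were averaged as 1 sample, and genes with a mean of at least 10 were tested as log2(value + 1) in limma 3.58.1 with line and day as factors and Benjamini-Hochberg adjustment, 3005707 to 8113699 reads a column. The values fell within 0.02 of whole reads in all columns (100%), so edgeR 4.0.16 and DESeq2 1.42.0 were run on recovered reads. With 1 sample for each line and day and line as a factor, p-values measure how unevenly the day differences repeated between lines. On simulated counts for the day 7 minus day 4 comparison, with 200 genes changed 4-fold, limma recovered 90.5% and called 5 unchanged genes (14359 genes), edgeR 90.5% and 1 (15186 genes), and DESeq2 98% and 46 (15705 genes). The simulation gave all lines the same mean levels and the same change. In the data the lines differed, for *T* with a log2 difference of -6.89 in J1 and 0.96 in Pcl1-3 wt. The recovery therefore does not carry over to the leading genes. Promoters were from RefSeq (GRCm38.p6), gene positions from GENCODE M21, and 25816 of 26007 bulk identifiers matched a symbol.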

Additional observations from a re-analysis of the deposited data

Results flagged for a closer look

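The bulk library labelled *Jarid2* null at day 4, which the test over WT lines did not use, held higher levels of 6 of the first 7 leading genes of cluster 14 than any of the 12 samples of the WT lines, the exception being *Mesp1*. It had 1001 normalized counts of *Mixl1* (highest WT sample 548), 572 of *Cyp26a1* (487), 1119.8 of *T* (829.8), 511 of *Lhx1* (510.2), 1628 of *Eomes* (769.8) and 583 of *Fst* (344). For *Lhx1* the 2 levels were nearly equal. The share of all genes above every WT sample in this library is not given, so the count of 6 has no background. The library labelled *Jarid2* null also held 2.81 normalized counts of *Hprt* at day 4, 2.27 at day 2 and 0.380 at day 7, but 546 at day 0, while the WT lines ranged from 238 to 957. Its level of *Jarid2* at day 4 was 1288. At day 0 the library labelled *Mtf2* null held 0.865 of *Hprt* and 1628 of *Mtf2*, and the library labelled *Jarid2* null held 667 of *Mtf2*, and the counts over all 6 lines use these labels. The part of line or label in these levels was not tested.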

How the results depend on the processing

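The 40 genes at least 4 times higher in cluster 14 than in all other cells became 21 against cells of the same days, and 43 to 46 without WT day 7 or *Mtf2* null day 7. Ratios of the 30 named genes kept their direction in 210 recomputed values, 114 of which left the counting interval, and 32 recomputed shares stayed within theirs. The 72 genes differing between *Mtf2* null and WT became 199 with cells thinned to 2500 UMIs and 902 at day 10 alone, where WT had 6 and *Mtf2* null 13 cells. In bulk, between day 4 and day 7, the number of leading genes that fell (0) became 5 with all 6 lines and 4 with DESeq2, and was 0 to 4 without a line (4 without Pcl1-3 wt). Over all genes the 3 that fell became 1 with days 4 and 7 only, 815 with all 6 lines, 0 with no line block, 10 with edgeR, 257 with DESeq2 and 0 to 86 without a line. The 8 that rose became 27 with no filter on low values, 1287 with all 6 lines, 1 with no line block, 36 with edgeR, 542 with DESeq2 and 0 to 216 without a line (0 without JM8, 216 without Pcl1-3 wt). Without J1 several log2 differences turned positive, with ranges over the lines left out of -1.61 to 1.21 for *Cyp26a1*, -3.02 to 1.51 for *Lhx1*, -3.48 to 0.014 for *Eomes*, -3.42 to 0.18 for *Fgf8* and -0.93 to 0.77 for *Snai1*, which also had 0.24 with all 6 lines. *Rspo3* ranged from -0.34 to 1.07 and had -0.060 with DESeq2. The 13 leading genes that rose from day 0 to day 4, a contrast added after seeing the data, ranged from 0 to 16 without a line. The causes were not tested. No paired analysis was possible because single-cell genotypes and days had 1 library each and the bulk samples of a line and day share no replicate number with another line, the line itself being the block.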
